A study of Mus musculus with 572 samples.

Results

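Cells with high levels of skeletal muscle genes were picked out among single thymic epithelial cells, as candidates for the thymic myoid-like cell. A score was computed for each cell as the mean natural-log normalized value of 8 genes (Myog, Neb, Pdlim3, Mylk4, Rbm24, Myom2, Chrng and Dusp27), and the 50 cells with the highest score, 8.74% of the cells, were taken as members. The measured values of these 8 genes chose the members, so their levels are given as a description with no test. The cells were sorted from thymus as mTEC-high, medullary thymic epithelial cells that are CD45-, EpCAM+, Ly51- and high for MHC class II. They came from neonatal C57BL/6 mice of unknown sex, from EED-cKO mice at day 3 or day 4 and from Aire/EED-dKO mice at day 4, with the number of cells given by batch below. In both genotypes a floxed Eed gene was deleted by Cre from the Foxn1 gene, which acts in thymic epithelium, and Aire/EED-dKO mice lacked Aire as well. Eed-sufficient cells were not analysed here, so no value below is a comparison with intact PRC2. Each cell was sequenced by RamDA-seq, which reads total RNA over the full length of transcripts without molecular identifiers.

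Myoid cells are muscle-like cells of the thymic medulla, known for acetylcholine receptors of the kind that muscle carries. Medullary thymic epithelium also contains mimetic cells, which take on the gene program of a peripheral tissue through that tissue's own transcription factors while keeping an epithelial identity. In muscle, the basic helix-loop-helix factors Myod1, Myf5, Myf6 and Myog bind E boxes together with partners of the Tcf12 kind, Mef2 factors act beside them, and Myog turns on the genes of terminal differentiation. PRC2, of which EED is a core subunit, deposits the repressive mark H3K27me3 on silent developmental genes.

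Of the 50 members, 35 were Aire/EED-dKO cells and 15 were EED-cKO cells. This is 13.01% of Aire/EED-dKO cells (95% Clopper-Pearson interval 9.23 to 17.6) and 4.95% of EED-cKO cells (2.80 to 8.03). The interval covers counting of cells only, and no test was made, as no label names an animal and each genotype counts as 1 sample. By experimental batch, as the labels name it, the share of members in Aire/EED-dKO was 12.5% (11 of 88 cells) in batch 1, 18.4% (14 of 76) in batch 2, 5.26% (2 of 38) in batch 6 and 11.9% (8 of 67) in batch 7. In EED-cKO it was 4.60% (4 of 87) in batch 3, 10.5% (8 of 76) in batch 4, 3.17% (2 of 63) in batch 8 and 1.30% (1 of 77) in batch 9. The batches of the genotypes overlapped, since EED-cKO batch 4 lay above Aire/EED-dKO batch 6. Batches 8 and 9 were the EED-cKO cells of day 3, and at day 4 alone the share in EED-cKO was 7.36% (12 members, 3.86 to 12.5). No batch held both genotypes, so genotype and batch cannot be told apart.

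**Figure D1:**
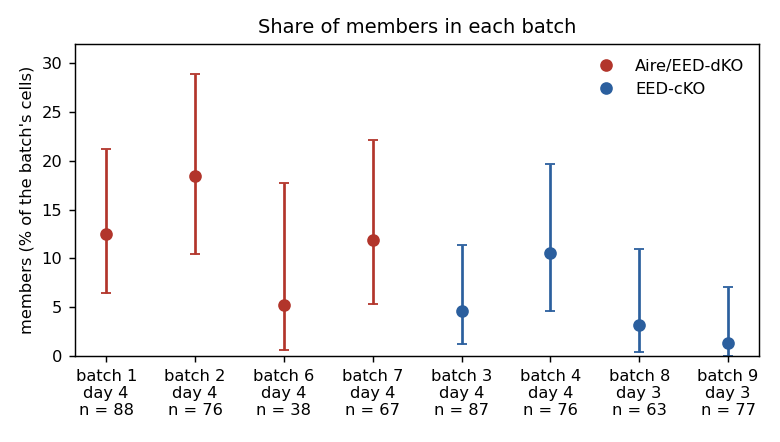
Share of members among the cells of each experimental batch, in percent, with exact 95% Clopper-Pearson intervals as bars that cover counting error only. Each point is 1 batch, and the shares run from 5.26% to 18.4% in Aire/EED-dKO (red) and from 1.30% to 10.5% in EED-cKO (blue).

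The score fell steeply among the members, from 2.38 in the highest cell to 0.257 at place 50, and the next cell outside had 0.252. The median was 0.526 in Aire/EED-dKO members and 0.377 in EED-cKO members, against 0.0581 and 0.0406 in the remaining cells. Of the 11 highest cells, 10 were Aire/EED-dKO and 1 was EED-cKO (place 4, batch 4). The threshold at 50 cells therefore lay on a gentle slope and not at a gap.

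**Figure D2:**
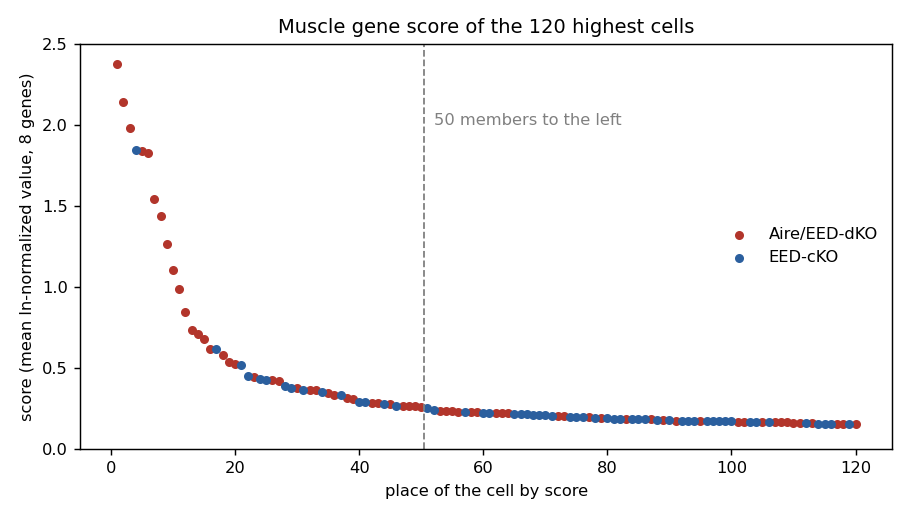
Score (mean natural-log normalized value of the 8 genes) of the 120 highest cells against their place, with 1 point a cell, coloured by genotype. The dashed line separates the 50 members from the other cells, and no step is seen at the line.

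Judged by the score genes, the label of myoid-like cells fitted only some members. With at least 5 reads counted as expression, 18 of 35 Aire/EED-dKO members and 3 of 15 EED-cKO members expressed 6 or more of the 8 score genes, and 5 and 1 of them expressed all 8. Among remaining cells this held for 1 cell (0.427%) in Aire/EED-dKO and 2 cells (0.694%) in EED-cKO. The same 8 genes chose the members, so this contrast follows largely from the choice and is a description. The median member expressed 6 score genes in Aire/EED-dKO and 4 in EED-cKO, and the median remaining cell 2 in both. After thinning every cell to 200000 reads, the median number with a read was 5 in Aire/EED-dKO members and 3 in their remaining cells, and 3 and 2 in EED-cKO. A single gene made up over 75% of the score in 3 Aire/EED-dKO members and in 7 EED-cKO members. In EED-cKO the leading gene was Neb in 6 members and Mylk4 in 4, and one such cell (place 29) had 1748 CPM of Neb with 2.206 CPM of Chrna1 and no Chrnd read. CPM are reads per 1000000 reads of the cell or of the summed cells. The members are therefore called high-score cells below, and the 18 and 3 cells with 6 or more score genes are described beside the others.

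Depth was not higher in the members. The median was 801220 reads in Aire/EED-dKO members (235893 to 1378568) and 941050 in their remaining cells, and 1118160 and 1251290 in EED-cKO. Genes detected after thinning had medians of 12208 and 12107 in Aire/EED-dKO, and of 11590 and 12127.5 in EED-cKO.

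The score genes span the steps of muscle formation. Myog (myogenin, chromosome 1 from 134289989 to 134292548, GRCm38) is the transcription factor of terminal differentiation. Rbm24 (chromosome 13 from 46418434 to 46431095) is an RNA-binding protein that controls muscle splicing. Neb (nebulin, chromosome 2 from 52136647 to 52378474) runs along the thin filament, Myom2 (myomesin 2, chromosome 8 from 15057653 to 15133541) cross-links thick filaments at the M band, and Pdlim3 (chromosome 8 from 45885461 to 45919548) is a Z-disc protein. Mylk4 (chromosome 13 from 32700834 to 32783954) is a myosin light chain kinase, and Chrng (chromosome 1 from 87204657 to 87212694) is the gamma subunit of the fetal acetylcholine receptor. Dusp27 (chromosome 1 from 166098148 to 166127922) is an atypical phosphatase family member needed for myofibre assembly.

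The DNA before the start of 3 of these muscle genes is shown because E boxes are the letters that Myog and its relatives bind. The sequences are the 250 bases before the start in RefSeq (GRCm38.p6), 5′ to 3′ on the strand of the gene, with every E box, CANNTG, in capitals. Myog lies on the plus strand (chr1:134289754-134290003), Chrng on the plus strand (chr1:87205561-87205810) and Chrna1, the alpha subunit gene outside the score, on the minus strand (chr2:73580339-73580588).
Myog: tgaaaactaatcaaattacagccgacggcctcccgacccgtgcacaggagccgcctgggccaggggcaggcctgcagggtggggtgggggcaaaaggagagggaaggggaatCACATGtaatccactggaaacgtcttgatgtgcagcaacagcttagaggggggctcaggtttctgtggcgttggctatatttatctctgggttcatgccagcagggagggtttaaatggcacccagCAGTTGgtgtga
Chrng: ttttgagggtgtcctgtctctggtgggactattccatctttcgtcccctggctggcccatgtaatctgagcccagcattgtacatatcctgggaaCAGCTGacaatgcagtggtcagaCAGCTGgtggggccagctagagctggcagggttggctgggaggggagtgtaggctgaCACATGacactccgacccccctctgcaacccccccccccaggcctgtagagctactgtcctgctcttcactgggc
Chrna1: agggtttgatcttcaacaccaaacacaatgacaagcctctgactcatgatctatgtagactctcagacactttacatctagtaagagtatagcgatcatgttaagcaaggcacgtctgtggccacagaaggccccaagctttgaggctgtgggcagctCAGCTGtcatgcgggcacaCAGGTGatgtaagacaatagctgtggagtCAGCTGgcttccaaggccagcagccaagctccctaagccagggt

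The Myog stretch holds 2 E boxes and no CAGCTG, the form that myogenic factors prefer. Those of Chrng and Chrna1 hold 3 E boxes each, of which 2 read CAGCTG. Of the 8 score genes, 6 matched the RefSeq table (Neb and Myom2 did not), and 4 of their 6 promoters (66.7%) held CAGCTG within 250 bases before to 50 after the start, on either strand. Of the genes of 9 muscle lists outside the score, 66.9% matched, and 45 of their promoters (35.4%) held CAGCTG. Among all 32851 promoters of the same length, 5355 (16.3%) did. CANNTG, which holds CAGCTG within it, was in 76.4% of the muscle promoters and 72.3% of all promoters. The Mef2 core was searched only as the letters TATTTATA or TAAAAATA, the first of which overlaps the letters of a TATA box. They were in none of the 6 score gene promoters, 11.02% of the muscle promoters and 4.30% of all. Other forms of the core were not searched, so a promoter without these letters may still hold one. A match describes letters in this window and is not a bound site.

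In Aire/EED-dKO, summed reads of the 8 score genes made 2189.5 to 2782 CPM in the 3 batches with at least 3 members, and 79.98 CPM in the remaining cells (67.6 to 94.9 over 4 batches). Among single members Myog ran from 0 to 1198 CPM with a median of 63.9, and Neb from 0.914 to 6612 with a median of 493. Mylk4 was concentrated in fewer cells, from 0 to 4138 CPM with a median of 2.82 and at least 5 reads in 15 of 35 members. Rbm24 was expressed in 32 of 35 members and Myog in 30, against Myom2 in 13. Remaining cells overlapped with the members gene by gene, the highest of them reaching 140 CPM of Myog and 307 CPM of Neb. Over the 35 members the 28 pairs of score genes had Pearson correlations from 0.185 to 0.751 (median 0.487) on natural-log values, all positive. These are a description of cells picked by the same values, and the cells of 1 batch share an experiment.

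**Figure D3:**
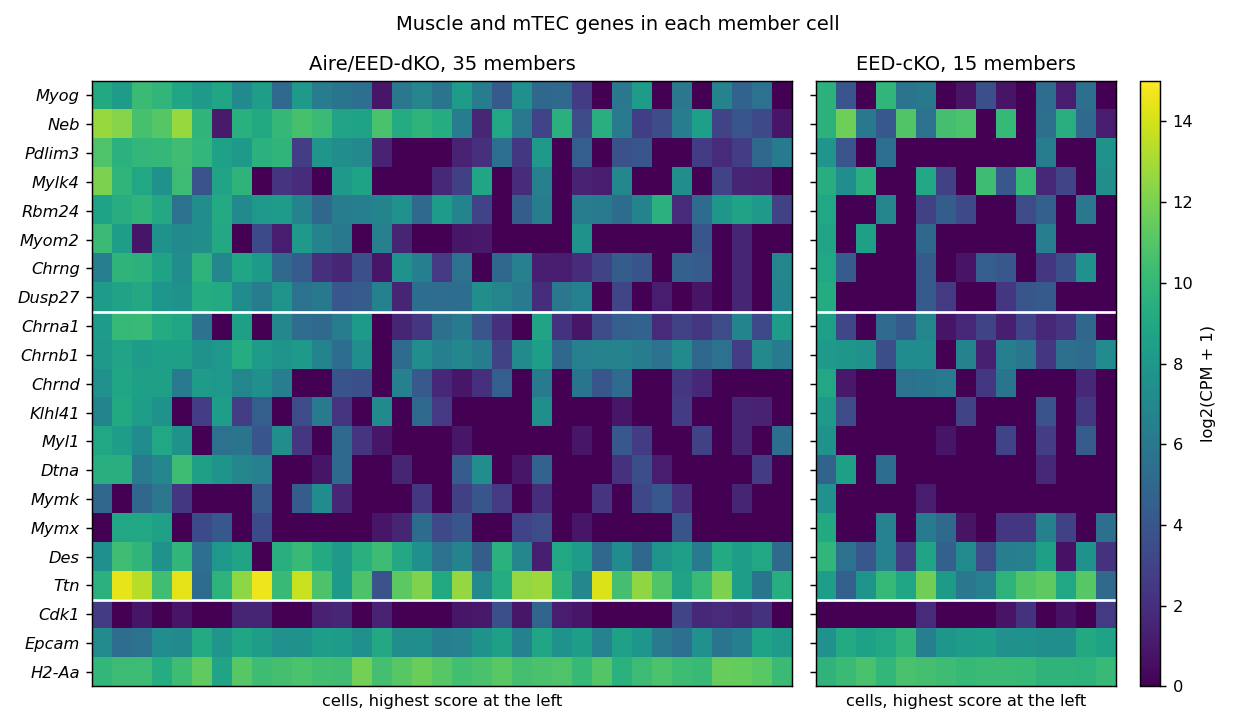
Expression of 21 genes in each of the 50 members, as log2(CPM + 1) by colour, with 1 column a cell, ordered by score within each genotype. The rows are the 8 score genes, 10 muscle genes outside the score and 3 others (Cdk1, Epcam, H2-Aa), and muscle genes light up mainly in the left columns while Epcam and H2-Aa are present in every member.

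Genes outside the score were then compared between members and the remaining cells of the same genotype. Reads were summed over cells and a log2 ratio was taken with 0.1 CPM added. A gene is called higher or lower here where the ratio was at least 2-fold and every batch with at least 3 members had the same direction (batches 1, 2 and 7 in Aire/EED-dKO, batches 3 and 4 in EED-cKO). In Aire/EED-dKO, 1051 of 25070 genes (4.19%) were higher and 2672 (10.7%) lower, with a median log2 ratio of -0.06. Of the tested genes of the 9 muscle lists, 35 (25.5%) were higher and 6 (4.38%) lower, with a median of 0.56. The members were chosen in the same cells, so these are sizes with no test, and the lists were drawn up with earlier results of these data known. Without batch 2, 7.18% of genes were higher. Without batch 1 or batch 2, 18 or 14 muscle genes were lower, beside 15.1% or 14.4% of all genes. Without batch 7, 6 were lower, beside 12.1% of all genes. Leaving out any of these batches leaves 2 batches to set the direction. With the 75 highest cells as members, 12 muscle genes and 1.31% of all genes were higher. Poisson intervals below cover counting of reads only.

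The acetylcholine receptor of muscle is a pentamer, and its fetal form holds the gamma subunit where the adult form holds the epsilon subunit. Chrna1 was 186.2 CPM in members (181.3 to 191.2; batches 89.7 to 251.3) and 14.2 CPM in remaining cells (13.7 to 14.8; batches 10.4 to 17.1), a log2 ratio of 3.70. Single members ran from 0 to 1084 CPM with a median of 25.5, and 24 of 35 had at least 5 reads, against 40.2% of remaining cells. After thinning of every cell to 200000 reads, 80% of members and 50.4% of remaining cells had a read. Chrnd, the delta subunit, was 85.4 against 5.06 CPM (log2 ratio 4.05) and Chrnb1, the beta subunit, 167.2 against 50.2 CPM (1.73). Chrne, the adult epsilon subunit, went the other way at 4.07 against 8.25 CPM (-1.002) without being called. Chrna1, Chrnb1 and Chrnd are shared by both forms of the receptor, and Chrng, which marks the fetal form, is a score gene, so these values do not compare the forms. Chrnd and Chrng are neighbours on chromosome 1, Chrnd from 87190607 to 87200070. Of 13 genes of the receptor and the neuromuscular junction, 3 were higher and none lower. Musk, the receptor kinase that clusters the receptors, was 8.42 against 2.14 CPM and not called, and Rapsn, the scaffold of the clusters, was 0.882 against 1.34 CPM with 26 reads. Ache (acetylcholinesterase, 649 against 421 CPM), Utrn (utrophin, 347 against 250) and Colq (the collagen-like tail that anchors acetylcholinesterase, 296.1 against 151.7) were not called.

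Among the myogenic regulators, 5 of 19 tested genes were higher and 1 lower. The founding regulators were scarce in these cells. Myod1 had 5 reads in all 35 members (0.170 CPM) against 0.185 CPM in remaining cells and was too low to be tested, and Pax7, a marker of muscle stem cells, had 15 reads. Myf5 was 12.8 against 4.88 CPM (log2 ratio 1.38), with at least 5 reads in 10 of 35 members, and Myf6 5.80 against 3.90 CPM, not called. Smyd1, a muscle methyltransferase needed for sarcomere assembly, was 27.3 against 0.740 CPM (5.03). Mef2a was 352 against 151.99 CPM (1.21), Mef2c 106.8 against 43.5 (1.29) and Tead4 4.95 against 1.91 (1.33). Id3, which keeps E proteins from binding DNA, was lower at 8.38 against 22.9 CPM (-1.44). Tcf12 (311 against 217.6 CPM) was not called.

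Sarcomere genes were raised in part. In the thin filament, 2 of 16 tested genes were higher and none lower. Klhl41, a chaperone-like protein of nebulin, was 70.9 against 1.48 CPM (5.49) and Tnnt3, fast troponin T, 36.1 against 10.1 (1.83). Tpm1 (220 against 113.7 CPM) and Tpm2 (280.9 against 165.9), tropomyosins also used outside muscle, and Tnnt2 (104.5 against 204.4), cardiac troponin T, were not called. Skeletal actin, Acta1, had 28 reads in the members (0.950 against 1.59 CPM). In the thick filament and M band, 7 of 16 were higher and 1, the light chain Myl3, lower. Myl1, the fast light chain, was 70.1 against 1.29 CPM (5.66), Myom1 31.4 against 1.46 (4.33), Myh4 109.1 against 14.3 (2.93), Mylpf 31.6 against 7.23 (2.11) and Mybpc1, slow myosin-binding protein C, 128.04 against 39.1 (1.71). Embryonic myosin Myh3 was 3.83 against 0.754 CPM (2.20), with at least 5 reads in 5 of 35 members. The myosin heavy chain genes are close copies, and reads that fit several of them equally well were not counted.

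The large scaffold protein titin differed from these genes in that every Aire/EED-dKO cell had at least 5 reads of it. Ttn was 5185 CPM in members (batches 2681 to 7795) and 2377.2 CPM in remaining cells (1489 to 2958), a log2 ratio of 1.12. Single members ran from 13.1 to 25536 CPM with a median of 1541, against a median of 1206 and a maximum of 45401 CPM in remaining cells, so the groups overlapped fully. Des (desmin), the intermediate filament of muscle, was 410 against 110 CPM (1.89), with at least 5 reads in 33 of 35 members. In the titin and Z-disc list 4 of 18 tested genes were higher (Ttn, Des, Myoz2, Ankrd23) and 2 lower (Csrp3, Ankrd1). Myoz2 rested on 85 reads, 47.1% of them in 1 cell. Actn3, the fast alpha-actinin, was 424 against 452 CPM and not called, and Actn2 had 4 reads in the members.

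In excitation-contraction coupling, 5 of 21 genes were higher and 1 lower. Hrc, a calcium-binding protein of the sarcoplasmic reticulum, was 18.2 against 2.46 CPM (2.84), the calcium pump Atp2a1 66.9 against 22.8 (1.55), the muscle sodium channel Scn4a 160.9 against 73.03 (1.14) and the muscle chloride channel Clcn1 8.76 against 1.79 (2.23). Ryr1, the calcium release channel of skeletal muscle, was lower at 2.58 against 7.23 CPM (-1.45), while Ryr2, its cardiac relative, was higher at 115.2 against 17.1 CPM (2.74). Cacna2d1 (695 against 381 CPM) and Jph1 (509 against 431) were not called. Among genes of fusion and adhesion 3 of 11 were higher and none lower. The fusogens Mymk (myomaker) and Mymx (myomixer), which join myoblasts into fibres, were 14.3 against 0.499 CPM (4.59) and 58.6 against 3.33 CPM (4.10), each with at least 5 reads in 11 of 35 members. Itga7, the laminin receptor of muscle, was 16.0 against 3.14 CPM (2.31). Cdh2 (44.7 against 45.03 CPM) and Nphs1 (31.9 against 13.6) were not called, and Cav3 had no read in any member.

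In the dystrophin complex, 2 of 12 genes were higher and 1 lower. Dtna (dystrobrevin alpha) had the largest ratio of the genes named by size, 134.5 against 1.63 CPM (6.28), with at least 5 reads in 14 of 35 members and 44.7% of its reads in 1 cell. Sgcd, delta-sarcoglycan, was lower at 13.2 against 35.7 CPM (-1.43). Dmd itself was 37.9 against 55.01 CPM and Sntb1 38.6 against 41.1 CPM, neither called. In muscle metabolism 4 of 11 were higher and none lower. Pgam2, the muscle form of phosphoglycerate mutase, was 15.3 against 5.29 CPM (1.51) and Ckm, muscle creatine kinase, 6.35 against 2.90 CPM (1.10). Eno3 (40.5 against 39.5 CPM) and Phka1 (27.7 against 36.1) were not called. Of 8 tested cardiac genes 1 was higher and 4 lower (Gata4, Tbx5, Myl7, Tnni3). Of 9 smooth muscle genes, Acta2 was higher (51.1 against 21.8 CPM, 1.22) and Smtn lower, and Myh11 was 314 against 545 CPM.

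**Figure D4:**
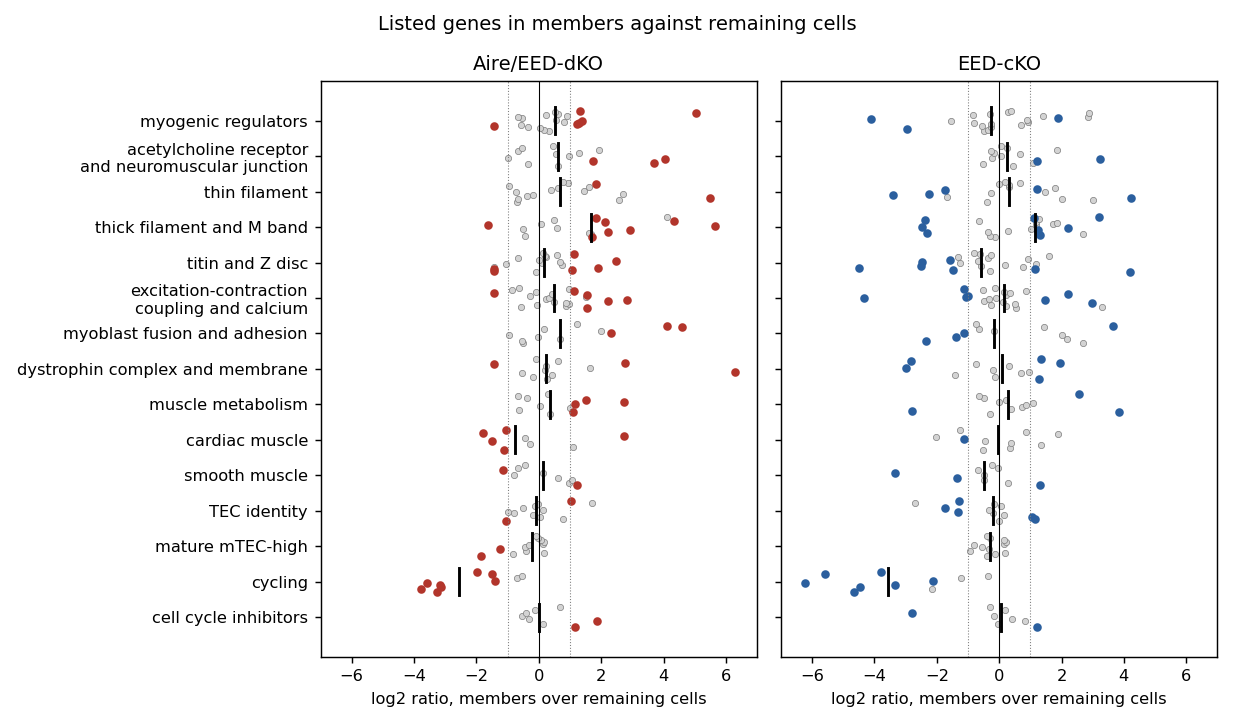
Log2 ratio of members over remaining cells for each tested gene of 15 lists, with 1 point a gene, in Aire/EED-dKO (left) and EED-cKO (right). Coloured points are called, grey points are not, black bars mark list medians and dotted lines the 2-fold limits. In Aire/EED-dKO 35 muscle genes are called higher and 6 lower, in EED-cKO 21 and 23, and cycling genes lie to the left in both.

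Beyond the lists, 15 genes in each direction were ranked by the size of their ratio in Aire/EED-dKO. Besides Dtna, Myl1, Klhl41, Smyd1, Mymk and Myom1 above, those higher in members included 2310002L09Rik (30.8 against 0.402 CPM), Nrk (482 against 20.3), Ctxn3 (31.8 against 1.26), Gm16233 (26.5 against 1.08), Clca1 (45.9 against 2.18), St8sia4 (165.5 against 8.35), Ppp1r1c (7.98 against 0.324) and Stard13 (61.8 against 3.37). Nrk, a kinase of the germinal centre kinase family, was in most members (23 of 35 with at least 5 reads, log2 ratio 4.56). Gm16233 is an antisense gene that cannot be told from its partner here, as reads were counted without strand. Dtna, Myom1 and Stard13 overlap exons of other genes, so some of their reads may belong elsewhere. A single cell held 68.8% of the member reads of Stard13, 61.04% of Myom1, 55.4% of 2310002L09Rik and 53.1% of Gm16233.

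Lower in members were Spata19 (0.136 against 12.2 CPM), 4930452G13Rik (0.136 against 7.11), Hrk (0.747 against 14.1), Syt8 (0.882 against 15.8), Tg (1.43 against 23.03), Gfpt2 (0.509 against 9.11), Serpina9 (2.68 against 41.2), E230034D01Rik (0.611 against 9.85), Pik3r5 (0.543 against 8.84), Tpx2 (2.24 against 27.3), Serpinb2 (4.72 against 56.1), Hoxa9 (1.15 against 13.8), B4galnt4 (0.543 against 6.93), Gm39323 (1.39 against 15.3) and Cdk1. Tg encodes thyroglobulin of the thyroid, and Tpx2 and Cdk1 act in mitosis. The 10 genes outside the score whose values went most closely with it over all Aire/EED-dKO cells were Chrnd (Pearson correlation 0.835), Dtna (0.822), Myl1 (0.821), Ctxn3 (0.732), Nrk (0.716), Smyd1 (0.705), Klhl41 (0.705), 1700066O22Rik (0.681), Crym (0.678) and Chrna1 (0.661). These correlations were on natural-log values and share depth and batch with the score. Of the 10, 6 belong to the muscle lists, which hold a small part of the 25070 genes tested in Aire/EED-dKO. The score is itself made of muscle genes, and the lists were drawn up with earlier results of these data known. The count is therefore a description with no test.

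Epcam and MHC class II, by which the cells were sorted, were present in the members, as the gate requires, and are no evidence on identity. Every member had at least 5 reads of Epcam, the epithelial adhesion molecule of the sort gate, at 222.4 against 254.96 CPM in Aire/EED-dKO, and from 40.3 to 576 CPM in single members. H2-Aa, an MHC class II chain also used in the gate, was 1494 against 1361 CPM, and the co-stimulatory Cd80 190 against 254.7 CPM. Foxn1, the master regulator of thymic epithelium, was 148.4 against 255.1 CPM (-0.78) and not called. Trp63, the regulator of stratified epithelium, was higher at 308 against 151.8 CPM (1.02). Of 12 TEC identity genes 1 was higher (Trp63) and 1 lower (Cd83), and of 12 mature mTEC-high genes none was higher and 2 were lower (Aire, Cd86). In EED-cKO, of the same TEC identity genes, Cldn3 and Cldn4 (claudins) were higher and 3 lower. The lower ones were Krt5 (101.1 against 339.3 CPM) and Krt14 (99.3 against 247.9), keratins of basal epithelium, and Trp63 (73.6 against 178.2). Over all tested genes 4.29% were higher and 19.2% lower in EED-cKO, and 4.19% and 10.7% in Aire/EED-dKO. Aire reads, in a genotype that lacks Aire, were 6.69 CPM in members and 24.7 in remaining cells, against 660 and 875 CPM in EED-cKO. Eed reads, from a gene of which only a floxed stretch is deleted, were 14.4 against 12.5 CPM in Aire/EED-dKO and 9.92 against 11.6 CPM in EED-cKO, and do not check the deletion. Of 12 PRC2 genes only Epop, an accessory subunit, was called in Aire/EED-dKO (lower).

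Markers of other cells that such a sort could admit were summed in members and remaining cells of Aire/EED-dKO. The counts called stand beside 4.19% of all genes higher and 10.7% lower there, and 4.29% and 19.2% in EED-cKO. The thymocyte markers were 22.6 CPM in members (batches 15.1 to 38.8) and 84.5 in remaining cells (22.5 to 241.2), with 3 of 8 lower, and Ptprc, the CD45 gene, was 2.58 against 20.4 CPM. Summed mesenchyme markers were 525 (371 to 733) against 559 CPM (525 to 621), with 1 of 8 lower. Schwann cell markers were 189.8 (171.6 to 236.5) against 206.1 CPM (194.9 to 221.7), with 4 of 8 lower and none higher. Endothelial markers were 46.3 (31.9 to 67.1) against 25.9 CPM (24.3 to 30.6), with Tek higher among 4 tested and Kdr and Emcn at 0 in the members. In EED-cKO the thymocyte markers were 118.1 CPM in members and 53.3 in remaining cells, with none of 8 called. By batch they were 36.5 to 114.8 CPM in members (batches 3 and 4) and 49.5 to 61.8 in remaining cells. Schwann cell markers there were 444 against 297.5 CPM, with S100b and Fabp7 higher and 2 lower. For S100b, 97.6% of the member reads were in 1 cell, and its direction reversed with the 35 highest cells as members (-1.66). Mesenchyme markers were 584 against 602 CPM, with Col1a2 higher and 5 of 8 lower. Endothelial markers were 56.8 against 58.5 CPM, with 3 of 6 tested lower. Whether such RNA has a part in the muscle gene values was not tested.

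Most cycling genes were low in the members. In Aire/EED-dKO 8 of 10 were lower and none higher, with a median log2 ratio of -2.55. Mki67 and Pcna were not called. Mki67, a proliferation marker, was 96.4 CPM in the 18 members with 6 or more score genes, against 101.7 CPM in remaining cells. In the other 17 members it was 21.6 CPM. Cdk1, the mitotic kinase, was 2.04 against 25.6 CPM with at least 5 reads in 3 of 35 members and 37.2% of remaining cells. After thinning, 28.6% of members and 45.7% of remaining cells had a read of it. Top2a, the topoisomerase of dividing cells, was 15.9 against 63.02 CPM. Of 8 cell cycle inhibitor genes, 2 were higher. Cdkn1c (p57), which acts in muscle differentiation, was 502 against 137.8 CPM (1.86), from 19.6 to 1246 CPM in single members with a median of 423. Cdkn1a (p21), a target of myogenic factors, was 195.9 against 88.2 CPM (1.15). In EED-cKO 7 of 10 cycling genes were lower and none higher (median -3.57). Their summed level there was 171.8 CPM in members (batches 65.2 to 244.8) and 724 CPM in remaining cells, which ranged widely by batch (230.1 to 1357.5), and 12 of the 15 members but not all remaining cells were of day 4. What batch and age add to this size was not tested. Of the inhibitor genes in EED-cKO, Cdkn1a was higher at 324 against 138.8 CPM (1.22) and Cdkn2c lower at 2.57 against 18.3 CPM.

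More muscle genes lay above the remaining cells in members that expressed many score genes. In the 18 Aire/EED-dKO members with 6 or more score genes, 55 muscle genes outside the score were at least 2-fold above the remaining cells and 11 at least 2-fold below (40.1% and 8.03%, median log2 ratio 0.72), with no rule on batches, against 10.2% and 19.7% of all tested genes. In the other 17 members 24 were above and 25 below (17.52% and 18.2%, median 0.05), against 7.62% and 18.9% of all tested genes. After thinning, a cell of the first kind had reads of 49 to 84 muscle genes (median 68), a cell of the second kind 39 to 78 (median 56) and a remaining cell 34 to 76 (median 56). Chrna1 was 290 CPM in the 18 cells, 60.6 in the 17 and 14.2 in remaining cells. Smyd1 was 49.4, 0.674 and 0.740 CPM, Mymx 104.8, 2.85 and 3.33 CPM, and Myom1 56.9, 0.524 and 1.46 CPM, so that in the 17 cells these 3 genes lay below the remaining cells. For Myom1, 61.04% of the reads of the members were in 1 cell. Chrnb1 (240.6, 78.5 and 50.2 CPM), Des (490, 312 and 110), Cdkn1c (676, 292.2 and 137.8) and Klhl41 (110, 23.2 and 1.48) fell stepwise. Among the 17 cells Klhl41 was 144.1 CPM at place 16 and 179.3 at place 32, and at most 33.9 CPM in the others. Trp63 did not follow the score, with 281.5, 340 and 151.8 CPM. Foxn1 was 92.9, 215.5 and 255.1 CPM, lowest where the most score genes were expressed, while Epcam (215.3, 230.9 and 254.96) was similar in the 3 groups.

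**Figure D5:**
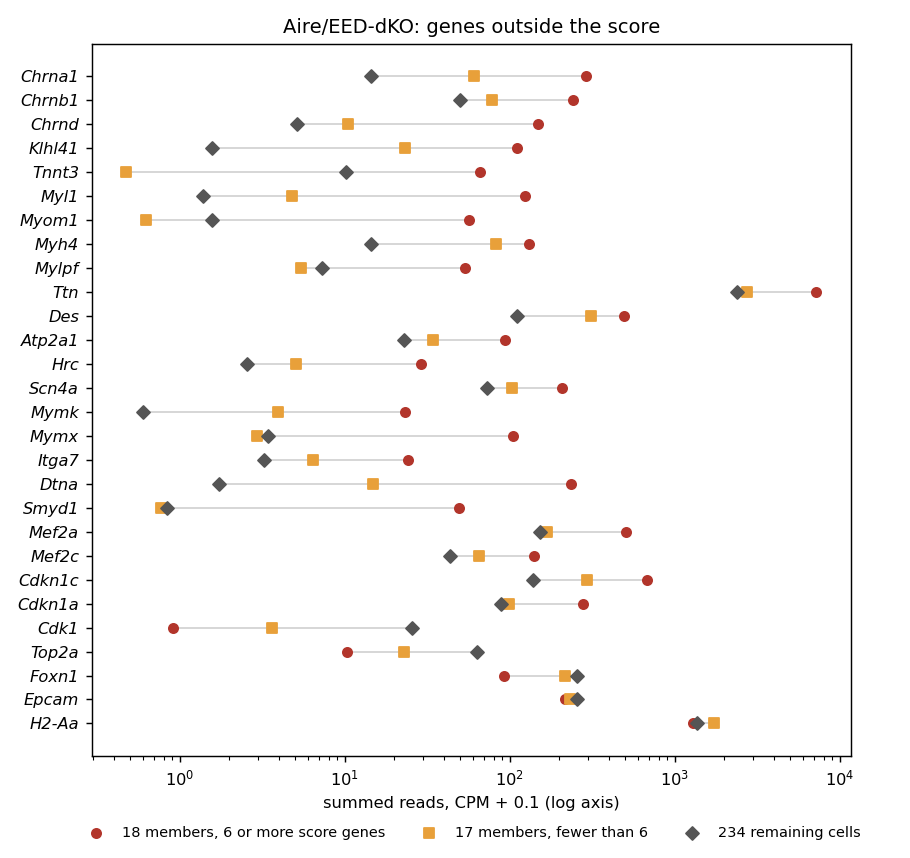
Level of genes outside the score in Aire/EED-dKO, as summed reads in CPM with 0.1 added on a log axis, for 18 members with 6 or more score genes (red circles), 17 members with fewer (orange squares) and remaining cells (grey diamonds). Smyd1, Myom1 and Mymx lie far to the right in the first group and near the remaining cells in the second, and H2-Aa and Epcam lie close together in all 3.

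In EED-cKO the same score picked out a different set of cells. Here 1202 of 28037 genes (4.29%) were higher in the 15 members and 5385 (19.2%) lower, with a median log2 ratio of -0.20. Only 2 batches had enough members to set a direction, so the calls here are less strict than in Aire/EED-dKO, where 3 batches did. Of the tested muscle genes 21 (14.2%) were higher and 23 (15.5%) lower, with a median of 0.17. With the mean of each cell's CPM 16 were higher and 24 lower with a median of 0.0049, beside 3.86% and 20.2% of all genes. With DESeq2 size factors the median of the muscle genes was 0.31. Without batch 3, 45 were higher, beside 11.3% of all genes, and without batch 4, 59 were lower, beside 31.2% of all genes, with 1 batch left in each case to set the direction. With the 75 highest cells as members, 1 was higher and 14 lower, beside 0.835% and 9.41% of all genes. With DESeq2 size factors in place of total reads the median of all genes moved from -0.20 to -0.07. Among receptor genes Chrnd was 58.4 against 6.15 CPM (3.23) and Chrnb1 98.95 against 42.4 (1.22), and Chrna1 was 44.4 against 20.9 CPM and not called. Mymx was 71.8 against 5.57 CPM (3.67), with at least 5 reads in 9 of 15 members and 68.6% of the reads in 1 cell. Ttn was 937 against 1116 CPM and Des 188.3 against 110.99 CPM, neither called. Myod1 was lower in the members (0.777 against 15.1 CPM, -4.12), and Pax7 was 88.1 against 12.3 CPM with 65.3% of the reads in 1 cell.

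A single cell held most of the reads of some muscle genes in the EED-cKO members. The cell at place 4 held 8.92% of all reads of these 15 cells, 15.4% of their reads of muscle genes outside the score, and over 50% of the reads for 17 (11.97%) of the tested muscle genes with reads. It held 93.1% of the Dusp27 reads, 89.8% of Klhl41, 87.5% of Myl1, 73.6% of Chrnd and 70.9% of Chrna1, but 44.6% of Des, 25.06% of Chrnb1 and 3.03% of Ttn. Without it 15 muscle genes were higher and 31 lower, beside 4.54% and 19.5% of all genes, and the median log2 ratio of the muscle genes turned from 0.17 to -0.19, close to the median of -0.22 over all genes. Without batch 4, which held 8 of the 15 members, it was -0.60, where the median over all genes was -0.34. The 3 EED-cKO members with 6 or more score genes, all in batch 4, had 168.9 CPM of Chrna1, 207.9 of Chrnd, 275.7 of Mymx and 616 of Des. In the other 12 these were 9.41, 16.5, 14.5 and 67.97 CPM. Among the 3, the cell at place 4 had 482.1 CPM of Chrnd and 552.4 of Mymx. The cells at places 25 and 40 had 56.4 and 0 CPM of Chrnd, and 74.8 and 91.9 of Mymx. In the 3 cells, 57 (38.5%) of the tested muscle genes lay at least 2-fold above the remaining cells and 38 (25.7%) below. In the other 12, 31 (20.9%) lay above and 47 (31.8%) below. No rule on batches was used, and the share over all genes was not counted.

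By size of ratio, the 10 genes higher in EED-cKO members were Fgf5, Sprr2h, S100b, Clca1, Sall3, Gm47644, Gm12873, Cnr1, Gabrr1 and Ros1, none of them in a muscle list. Clca1, also among the 15 in Aire/EED-dKO, was 458 against 11.3 CPM (5.33) with at least 5 reads in 6 of 15 members, and Cnr1, the cannabinoid receptor, 201.7 against 6.09 CPM (5.03) in 7. For 8 of the 10 most member reads were in 1 cell, with 95.3% for Fgf5, 97.6% for S100b, 96.2% for Sall3, 93.5% for Gm12873, 86.4% for Ros1, 85.1% for Gm47644, 84.8% for Gabrr1 and 52.7% for Sprr2h. The 10 lower genes were Knl1, Clspn, Kcna2, Heph, Dsc3, Gen1, Kif11, Tmem132c, Aqp5 and Polq. Knl1, Clspn, Kif11, Gen1 and Polq act in chromosome segregation, replication or DNA repair, and Knl1 had no read in the members against 31.9 CPM in the remaining cells.

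Between the genotypes, the members of Aire/EED-dKO had higher levels than those of EED-cKO for all 8 score genes, with a median log2 ratio of 0.92. The same ratio in the remaining cells was 0.59. These 8 genes chose the members of both genotypes by 1 shared threshold, so both ratios describe the choice. Pdlim3 differed most, 312 against 39.6 CPM (2.98), where the remaining cells had 8.64 and 11.98 CPM, and Mylk4 least, 270.7 against 254.2 CPM (0.09). Over the muscle genes outside the score the median was 0.20 in members, with 79 (52.3%) above 0, and -0.35 in remaining cells. Chrna1 (186.2 against 44.4 CPM), Myl1 (70.1 against 20.97), Klhl41 (70.9 against 26.4) and Ttn (5185 against 937) were higher in Aire/EED-dKO members. Others were higher in EED-cKO members, among them Actc1, cardiac actin (2.95 against 99.4 CPM), Cacna1s, the voltage sensor of muscle (2.55 against 52.9), Ryr1 (2.58 against 52.2), Unc45b, a myosin chaperone (5.12 against 63.4), and Actn2, alpha-actinin 2 (0.136 against 13.8), named after their values were seen. In EED-cKO 1 cell gave 98.7% of the Actc1 reads, 88.1% of Cacna1s, 87.4% of Actn2, 62.5% of Ryr1 and 43.3% of Unc45b. The remaining cells had a gap in the same direction for these 5 genes, 0.416 against 12.3 CPM for Actc1 and 0.203 against 6.88 for Unc45b, and a smaller one on the log2 scale for Actn2 (-1.99 against -5.88 in members), Ryr1 (-0.64 against -4.29) and Cacna1s (-0.45 against -4.33). Mymx (58.6 against 71.8) and Mymk (14.3 against 17.2) were slightly lower in Aire/EED-dKO members. Of the reads of the EED-cKO members, 68.6% of Mymx and 99.7% of Mymk were in the cell at place 4. Without the EED-cKO cell at place 4 the median over the score genes was 2.20 rather than 0.92. Of the listed genes tested in both genotypes, 8 (2.88%) were called in opposite directions, against 1.24% of all genes tested in both. No test was made of these differences, and the genotypes differ in batch and in age.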

How the data were processed

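Single mTEC-high cells were profiled by full-length total RNA sequencing. Per the labels, reads were trimmed with fastp 0.20.0, aligned to mm10 with STAR 2.7.3a, handled with SAMtools 1.9, stripped of duplicates with Picard 2.21.1 and counted with HTSeq 0.11.2 without strand. The authors deposited read counts for 50197 genes, of which 50011 identifiers were named with GENCODE (GRCm38), and natural log values. The deposited natural log values equal ln(1 + 10000 × count / total) in the 8 cells checked (largest difference 5.3e-15), so they were computed here from the counts for all 572 cells, and 564 normalized columns were not used. Depth ran from 205703 to 2419312 reads a cell, and no cells had identical counts. Intervals cover counting error only, as reads carry no molecular identifiers.

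The score, the 50 members, the summed CPM, the 0.1 CPM pseudocount and the 2-fold rule with direction shared by batches of at least 3 members are as given in the text. Genes needed at least 5 reads in at least 5 cells of the genotype. Shares of cells and numbers of genes called thinned were taken after drawing each cell down to 200000 reads, and other shares of cells use all reads. Genes were named by a rule: the score genes, Aire, Eed, a set of muscle and epithelial genes, at least the 3 highest of each muscle list, and the 15 (Aire/EED-dKO) or 10 (EED-cKO) largest ratios in each direction with at least 5 reads in 20% of the cells of the higher side. Counts were summed with Python 3.11.15, numpy 2.4.6, pandas 2.3.3 and scipy 1.17.1. edgeR 4.0.16 and DESeq2 1.42.0 in R 4.3.3 gave scaling factors for alternatives only. No count model was fitted, as each genotype is 1 sample, and the scripts were tested on simulated data. A few genes that these rules pick are not reported here, but they stay in the counts. No doublet caller was run. The members, the lists and the comparisons were chosen with earlier results of these data known. Alternatives were other scores, member numbers, scalings, pseudocounts and filters, and leaving out each batch.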

Additional observations from a re-analysis of the deposited data

Results flagged for a closer look

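Of the listed genes tested in both genotypes, 8 (2.88%) passed the 2-fold rule in opposite directions, against 1.24% of all genes tested in both, and none of these differences was tested. As log2 ratio in Aire/EED-dKO minus that in EED-cKO, they were 4.52 for Myh3 (2.20 and -2.31), 4.97 for Myoz2 (2.48 and -2.48), -3.64 for Ryr1 (-1.45 and 2.19), 2.56 for Mrln (1.56 and -1.01), 3.44 for Itga7 (2.31 and -1.13), 2.30 for Trp63 (1.02 and -1.28), -4.75 for Fabp7 (-1.84 and 2.90) and -2.91 for Krt77 (-1.47 and 1.44). The direction of Myoz2 in Aire/EED-dKO reversed with the 35 highest cells as members (-0.19), and that of Mrln in EED-cKO with the 75 highest (1.31). Several rest on few reads. Myh3 had 8 reads in EED-cKO members, all in 1 cell, Mrln had 6, and Myoz2 had none there. Trp63 had the most reads, 9077 in Aire/EED-dKO members and 1231 in EED-cKO members, with 308 against 151.8 CPM and 73.6 against 178.2 CPM. Ryr1 in EED-cKO had 874 reads, 62.5% of them in 1 cell.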

How the results depend on the processing

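No paired analysis was possible because replicate numbers only name cells and no test was made. Aire/EED-dKO cells made up 61.3% to 78% of the members under the other scores and member numbers, and 37 to 49 of the 50 members were shared when the score was changed. The median log2 ratio of the muscle genes in Aire/EED-dKO stayed between 0.43 and 0.67 in the alternatives run.

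The shares and counts of genes moved more. With a pseudocount of 1 CPM, 2.77% of genes were higher and 5.00% lower in Aire/EED-dKO, and 8.78% of genes and 15 muscle genes were lower in EED-cKO. With the 35 highest cells 10 muscle genes were lower in Aire/EED-dKO, beside 15.3% of all genes. With the 75 highest cells 1.31% of genes were higher and 6.41% lower in Aire/EED-dKO, with 12 muscle genes higher. In EED-cKO these were 0.835% and 9.41%, with 1 muscle gene higher and 14 lower, and the median over score genes between the genotypes was 1.17. With the 18 members with 6 or more score genes, chosen after seeing the data, 16.8% of genes were lower in Aire/EED-dKO. Leaving out 1 batch at a time gave 4.55% to 7.18% of genes higher and 10.9% to 15.1% lower in Aire/EED-dKO, with 6 to 18 muscle genes lower. In EED-cKO it gave 4.52% to 11.3% of genes higher, 19.4% to 31.2% lower, 20 to 45 muscle genes higher, 24 to 59 lower and a median of -0.60 to 0.30. Without the highest cell of EED-cKO, also chosen after seeing the data, that median was -0.19 and the median over score genes between the genotypes 2.20. Without thinning, the median Aire/EED-dKO member had reads of 7 score genes rather than 5. The cause of these moves was not tested.

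Direction was reversed for Myoz2 in Aire/EED-dKO (-0.19) and for Pax3 (-0.38), Casq1 (-0.35) and S100b (-1.66) in EED-cKO with the 35 highest cells. With the 75 highest it was reversed in EED-cKO for Mrln (1.31), Stac3 (0.40), Aqp5 (1.43) and Nrap (3.36). Without the highest cell it was reversed for Myl1 (-0.60), and Ckm ran from -0.46 to 4.14 with 1 batch left out.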

Other observations

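Markers of other mimetic cells were also compared. Over all tested genes, 4.19% were higher and 10.7% lower in Aire/EED-dKO members, and 4.29% and 19.2% in EED-cKO members. Of 8 microfold cell genes in Aire/EED-dKO, 4 were lower in members and none higher. Spib, a transcription factor of microfold cells, was 144.8 CPM in members and 369 in remaining cells (log2 ratio -1.35), and Sox8 5.97 against 17.3 CPM (-1.52). Of 6 tested keratinocyte genes 3 were lower, with Grhl3, a regulator of the skin barrier, at 11.2 against 56.3 CPM (-2.32). Of 6 tested tuft cell genes Dclk1 was higher, at 336 against 153.1 CPM (1.13), and Il25 lower (0 against 0.231 CPM), with a median log2 ratio of -0.58 over the 6 and Gnat3, Il25 and Chat at 0 in the members. Pou2f3, the regulator of tuft cells, was 2.58 against 3.80 CPM. In EED-cKO, Pou2f3 was higher in members, at 104.7 against 16.6 CPM (2.65), with at least 5 reads in 8 of 15 members and 38.6% of its reads in 1 cell. Neuroendocrine genes were not called in Aire/EED-dKO, at summed levels of 432 and 441 CPM. Of 8 ciliated cell genes in Aire/EED-dKO 1 was higher, and of 7 tested enterocyte and hepatocyte genes 2 were lower.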
